A study of Mus musculus with 24 samples.

Results

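Basophils make leukotrienes and prostaglandin D2 from arachidonic acid after antigen bridges the IgE on their surface. The genes described here are 7 of arachidonic acid metabolism: Pla2g4a, Alox5, Alox5ap, Ltc4s, Lta4h, Hpgds and, outside these routes, the lipoxygenase gene Alox15. They were chosen by symbol, as lipoxygenase and leukotriene synthesis genes, from the 15737 genes of the deposited table, and 7 of the 7 passed the filter on low counts that left 12936 genes for testing. Alox15 changed most clearly. Its RNA fell from 129 to 19.6 CPM (counts scaled to a common library total) in wild-type cells within 4 h of antigen removal, and from 125 to 5.91 CPM in cells without tristetraprolin, where it ended 3.32-fold lower. Alox5 RNA was lower in the mutant when averaged over the times (log2 difference -0.29), was called at no single time, and rose in both genotypes at 4 h. Pla2g4a RNA rose in WT by 2 h and 4 h, and in TTP-KO the rise was called at 2 h and not at 4 h. The TTP-KO call at 2 h was kept in 3 of 6 fits that left out 1 library. A difference between the genotypes in the 4 h change of Pla2g4a was not called (edgeR, log2 difference -1.40, adjusted p = 0.379).

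In the leukotriene route, cytosolic phospholipase A2 (Pla2g4a) cuts arachidonic acid from membrane lipids. The 5-lipoxygenase Alox5, to which the membrane protein FLAP (Alox5ap) presents the acid, turns it into leukotriene A4. Leukotriene C4 synthase (Ltc4s) joins this to glutathione, which gives the cysteinyl leukotrienes that contract airways, and the hydrolase Lta4h makes leukotriene B4, which draws in leukocytes. Alox15 encodes the 12/15-lipoxygenase, which oxidises arachidonic acid at other carbons, and Hpgds makes prostaglandin D2. Tristetraprolin (TTP, gene Zfp36) is an RNA-binding protein that recognises AU-rich elements in 3' untranslated regions (UTRs) and speeds the decay of the RNAs that carry them.

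The cells were basophils grown from the bone marrow of WT or TTP-KO mice in 0.3 ng/mL IL-3 for 7 days, given TNP-specific IgE and the uridine analogue s4U at 150 µM from day 6, and enriched with beads for CD49b, a surface protein that is not specific to basophils. All 8 groups received the antigen TNP-OVA at 10 ng/mL for 1.5 h with s4U still present, were washed, and were kept without either for 0, 1, 2 or 4 h, so no group was left unstimulated. Each group had 3 libraries of 3' RNA tags, named here by the table's letters A, B and C. The labels give no strain or age and do not tie libraries to separate animals or cultures, so p-values reflect only variation among the libraries, part of which can be technical. The design text states the aim of comparing RNA stability between the genotypes. The values below are total RNA, as TMM-scaled CPM (trimmed-mean scaling of the library totals), mean ± SD of 3 libraries, and log2 differences ± SE with adjusted p from edgeR's quasi-likelihood test. A gene was called at an adjusted p under 0.05. As tags are counted near the 3' end, levels are compared between groups for 1 gene and not between genes. Fewer cells that express a gene and less of its RNA per cell cannot be told apart in these bulk samples.

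Libraries held 8839260 to 25372890 reads, and the smallest were TTP-KO 4 h B and TTP-KO 4 h C. Basophil markers were present in each of the 24 libraries, for example Mcpt8 at 11810 to 15114 CPM. The summed level of 19 measured monocyte and macrophage markers, of 20 listed, was higher in TTP-KO: 2437 to 2507 against 1143 to 1184 CPM at 0 h and 1403 to 1802 against 715 to 794 CPM at 4 h. Neutrophil marker sums were lower in TTP-KO at 0 h (3817 to 4103 against 4413 to 4831 CPM) and higher at 4 h (3337 to 3511 against 2433 to 2698). Those of dendritic and B cells were higher in TTP-KO at each time, without overlap. They stood at 320 to 338 against 172 to 201 CPM at 0 h and at 239 to 300 against 145 to 185 CPM at 4 h. NK and T cell sums, in which Gzmb had a mean of 664 CPM, overlapped at 0 h and 4 h. In TTP-KO they were lower at 1 h (585 to 743 against 832 to 892 CPM) and at 2 h (450 to 515 against 559 to 621). The mean sum of 12 basophil markers fell from 45999 CPM at 0 h to 33487 at 4 h in WT and from 45392 to 34354 in TTP-KO, and its part in the changes with time below was not tested. The sum of 8 measured mast cell markers, of 9 listed, was lower in TTP-KO, at 135 to 159 against 238 to 257 CPM at 0 h and 130 to 184 against 269 to 304 CPM at 4 h. Among defining markers, the eosinophil receptor gene Il5ra had 0 reads in 21 libraries, the mast cell proteases Mcpt4 and Mcpt1 in 19 and 18, and the macrophage gene Mrc1 in 4. Prg2 and Siglecf of eosinophils (means of 160 and 40.7 CPM) and Tpsb2, Cma1 and Kit of mast cells (120, 43.0 and 15.2 CPM) had reads in all 24 libraries. Zfp36 itself still gave 355 to 3571 reads in each TTP-KO library. Its RNA was lower in TTP-KO when averaged over the times (log2 difference -0.90 ± 0.12, adjusted p = 3.43e-07). Single calls were made after 1 h (-1.45 ± 0.24) and 4 h (-0.87 ± 0.24). The 0 h and 2 h differences (-0.36 and -0.92) missed the threshold. Zfp36 libraries of the genotypes overlapped only at 4 h. There TTP-KO 4 h B stood at 62.1 CPM, within the WT range of 58.4 to 78.2, and A and C at 22.4 and 28.1. TTP-KO 4 h B also held the lowest Alox15 level of the 24 libraries (3.29 CPM). Tags from outside the deleted part would still be counted, so the reads that remain do not check the labels.

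Which of the 7 genes carry letters that TTP is known to bind was read from GENCODE M21 (GRCm38) 3' UTRs, as a description. The core motif TATTTAT, on the sense strand, occurred once in Alox5 (position 353 to 359 of a UTR of 645 bases) and in none of the other 6 genes; 30.2% of 15502 genes of the table with an annotated 3' UTR hold it. The longer TTATTTATT, which contains the core, occurred in none of the 7, against 8.28% of those genes. The other 6 UTRs ranged from 97 bases in Lta4h to 2634 in Hpgds, beside a median of 1149 over the table's genes. The Alox5 site is shown with 10 bases on each side, above the first of 6 such sites in Ptgs2, the inducible cyclooxygenase gene, for comparison. Capitals mark the core.
Alox5: tactttattcTATTTATgcttcctcca
Ptgs2: ctactgaccaTATTTATttatttatgt
In Ptgs2, cores overlap in a run from position 18 to 32, and the single Alox5 core stands alone.

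The 2 genes whose RNA rose in WT cells at 4 h, Pla2g4a and Alox5, are shown with a promoter window from RefSeq (GRCm38.p6). A window holds 250 bases before and 50 after an annotated start, which for Pla2g4a is the downstream of its annotated starts. Entries were found for 5 of the 7 genes; Alox15 and Alox5ap had no match. Capitals mark the GATA motif TGATAA or its reverse complement, GATA2 being a regulator of basophils and mast cells. The first window is chr1:149922390-149922689, minus strand, and the second chr6:116461129-116461428, minus strand.
Pla2g4a: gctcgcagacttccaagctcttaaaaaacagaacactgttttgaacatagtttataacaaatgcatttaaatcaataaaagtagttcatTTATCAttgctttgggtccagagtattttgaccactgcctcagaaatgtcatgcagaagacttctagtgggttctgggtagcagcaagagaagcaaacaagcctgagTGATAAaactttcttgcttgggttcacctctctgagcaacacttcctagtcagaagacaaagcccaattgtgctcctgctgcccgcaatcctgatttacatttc
Alox5: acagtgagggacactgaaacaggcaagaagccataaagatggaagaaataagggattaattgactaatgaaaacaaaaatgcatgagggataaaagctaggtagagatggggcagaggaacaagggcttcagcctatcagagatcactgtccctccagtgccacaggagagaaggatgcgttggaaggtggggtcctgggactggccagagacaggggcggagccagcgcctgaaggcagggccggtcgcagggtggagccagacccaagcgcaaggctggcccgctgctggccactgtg
TGATAA occurred at -161 on the minus strand of the Pla2g4a window and at -54 on its plus strand, counted from this downstream start. It was found on either strand in 9.05% of 32851 RefSeq promoter windows of this length. The upstream RefSeq start of Pla2g4a has its window at chr1:149961241-149961540, minus strand, which is not shown and holds no match. Which start these cells use was not analysed here. Searches on both strands for the GATA motif AGATAA and for the STAT motif TTCNNNGAA and its form with 1 more N, found in 11.2%, 8.30% and 6.95% of windows, gave no match in the 6 entries of these genes.

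Alox15 RNA fell throughout the 4 h in both genotypes. In WT, the libraries A, B and C stood at 123, 110 and 154 CPM at 0 h, 58.8, 84.0 and 53.3 at 1 h, 23.9, 30.0 and 27.7 at 2 h, and 15.0, 17.9 and 26.0 at 4 h. In TTP-KO they stood at 134, 121 and 119 CPM at 0 h, 56.4, 48.2 and 64.2 at 1 h, 27.4, 18.7 and 23.4 at 2 h, and 7.86, 3.29 and 6.57 at 4 h. Up to 2 h the genotypes overlapped at each time, and at 4 h each TTP-KO library lay below each WT library. Within a genotype, the libraries at 1 h lay below all those at 0 h, and those at 2 h below all those at 1 h. From 2 h to 4 h the ranges still overlapped in WT and had separated in TTP-KO.

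**Figure D1:**
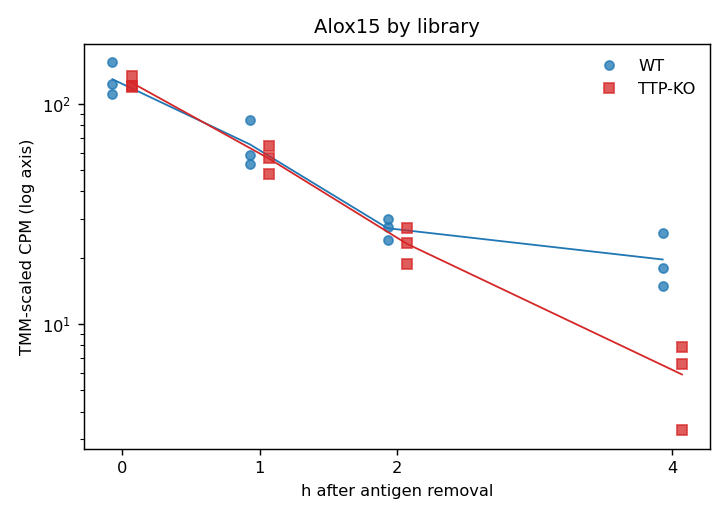
Alox15 level in each of the 24 libraries, as TMM-scaled CPM on a log axis, against hours after antigen removal; blue circles are WT, red squares TTP-KO, and lines join the group means. The genotypes overlap at 0, 1 and 2 h and do not overlap at 4 h, where WT libraries lie at 15.0 to 26.0 CPM and TTP-KO libraries at 3.29 to 7.86.

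At 1 h, Alox15 was the 1 of the 7 genes called in WT, where 2.33% of all genes tested were called, and the 1 called in TTP-KO, where 2.74% were. Its log2 change was -0.98 ± 0.25 in WT (adjusted p = 0.0191) and -1.15 ± 0.25 in TTP-KO (adjusted p = 0.00342). At 4 h it reached -2.72 ± 0.27 in WT (adjusted p = 2.23e-11), a 6.58-fold fall, and -4.38 ± 0.29 in TTP-KO (adjusted p = 6.43e-17), a 21.1-fold fall. The 1 h call in WT was lost on leaving out WT 0 h C, WT 1 h A or WT 1 h C (adjusted p = 0.163, 0.106 and 0.135), while the changes at 2 h and 4 h were called in every leave-one-out fit of either genotype.

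Between the genotypes, Alox15 was the 1 of 7 genes called at 4 h, where 1.82% of all genes tested were called. TTP-KO was lower by a log2 difference of -1.71 ± 0.27 (adjusted p = 5.26e-05). The TTP-KO libraries held 34 to 144 Alox15 reads there, and the WT libraries 272 to 436. The call held in all 6 fits that left out 1 library. Without both of the smallest TTP-KO libraries, which leaves 1 TTP-KO library at 4 h that is assumed to vary like the other groups, the difference was -1.33 (adjusted p = 0.0379), and in a fit of these 6 libraries alone the call was lost (adjusted p = 0.307). None of the 7 genes was called at 0 h, 1 h or 2 h, where 0.526%, 0.502% and 0.518% of all genes tested were called. At an unadjusted p under 0.05 Alox5 passed at these 3 times and Alox5ap at 1 h, and by DESeq2 Alox5 was called at 1 h.

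The test of the difference between the genotypes in the change from 0 h to 4 h also called Alox15 alone among the 7 genes, where 0.193% of all genes tested were called. The extra fall in TTP-KO was -1.66 ± 0.37 on the log2 scale (adjusted p = 0.0398). This call was lost in 6 of 12 fits that left out 1 library: WT 0 h A or B, TTP-KO 0 h A or B, WT 4 h C, or TTP-KO 4 h B (adjusted p = 0.0528 to 0.133). It was also lost in the fit of only the groups compared (adjusted p = 0.0711) and without both of the smallest TTP-KO libraries (-1.27, adjusted p = 0.237, with the same assumption). Averaged over the 4 times, Alox15 was lower in TTP-KO by -0.55 ± 0.13 (adjusted p = 0.00469). Other cells are known to express Alox15, among them eosinophils and some macrophages. At 4 h the marker sums of macrophages, of neutrophils, and of dendritic and B cells were higher in TTP-KO, and that of mast cells lower. The sum of 10 eosinophil markers overlapped between the genotypes (179 to 223 CPM in TTP-KO, 162 to 191 in WT). Within it, Prg2 and Siglecf had means of 160 and 40.7 CPM over the 24 libraries, and every other marker at most 7.51 CPM. The sum therefore says little about the other eosinophil markers. The part of any of these cells in the 4 h difference of Alox15 was not tested.

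**Figure D2:**
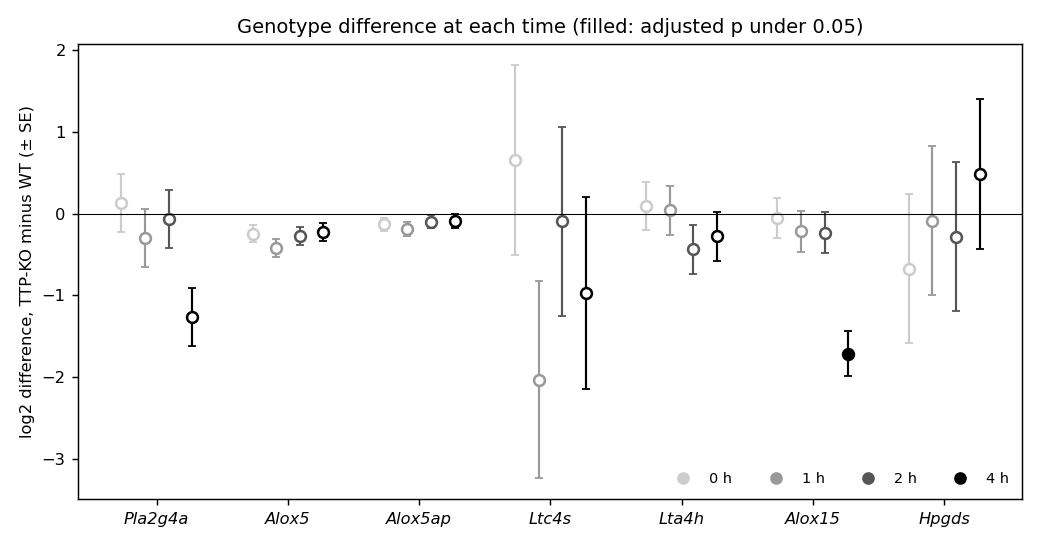
Log2 difference of TTP-KO minus WT (y axis, ± SE) for each of the 7 genes at 0, 1, 2 and 4 h, from light to dark; filled circles passed an adjusted p under 0.05. The single filled point is Alox15 at 4 h (-1.71), and the 4 Alox5 points lie between -0.42 and -0.23.

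Alox5 RNA stood lower in TTP-KO than in WT at each time, without overlap between the libraries. The WT libraries A, B and C gave 514, 507 and 511 CPM at 0 h, 479, 520 and 568 at 1 h, 546, 558 and 510 at 2 h, and 864, 715 and 738 at 4 h. The TTP-KO libraries gave 417, 441 and 437 CPM at 0 h, 368, 390 and 414 at 1 h, 422, 465 and 452 at 2 h, and 668, 637 and 673 at 4 h. All TTP-KO libraries lay below all WT libraries at each of the 4 times. Among all genes tested this held for 19, or 0.147%, and of the 7 genes for Alox5 only. WT 4 h A was the highest library of its group for Alox5 and also for Pla2g4a and Ltc4s.

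Averaged over the 4 times, 2 of the 7 genes were called, Alox5 and Alox15, both lower in TTP-KO, where 3.43% of all genes tested were called. At single times the Alox15 difference was -0.05, -0.22 and -0.23 at 0, 1 and 2 h, none called, and -1.71 at 4 h. For Alox5 the averaged difference was -0.29 ± 0.05 (adjusted p = 0.000257), and it was called in each of 24 leave-one-out fits and the 5 other settings. The Alox5 difference at single times ranged from -0.23 ± 0.11 at 4 h to -0.42 ± 0.11 at 1 h, with adjusted p of 0.643, 0.0583, 0.477 and 0.392 at 0, 1, 2 and 4 h. The 1 h difference was called with library totals as the only scaling (adjusted p = 0.017) and by DESeq2 (adjusted p = 0.000342). At 0 h and 4 h, the marker sums of macrophages and of dendritic and B cells were higher in the TTP-KO libraries, and those of mast cells lower. The neutrophil sums were lower at 0 h and higher at 4 h. The part of these cells in the Alox5 difference was not tested.

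With time, Alox5 changed late. At 1 h and 2 h it was not called in either genotype, with log2 changes between -0.14 and 0.08, except that library totals as the only scaling called a rise at 2 h in WT (0.33, adjusted p = 0.0351). At 4 h it had risen by 0.60 ± 0.11 in WT (adjusted p = 3.26e-05) and by 0.61 ± 0.11 in TTP-KO (adjusted p = 1.86e-05), and by 0.92 and 0.98 with library totals as the only scaling. At 4 h against 0 h, 3 of the 7 genes were called in each genotype, where 16.7% of all genes tested were called in WT and 18.1% in TTP-KO: Alox5 and Pla2g4a higher and Alox15 lower in WT, and Alox5 higher and Alox15 and Lta4h lower in TTP-KO. The difference between the genotypes in the 4 h change of Alox5 was 0.02 ± 0.15 (adjusted p = 1).

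**Figure D3:**
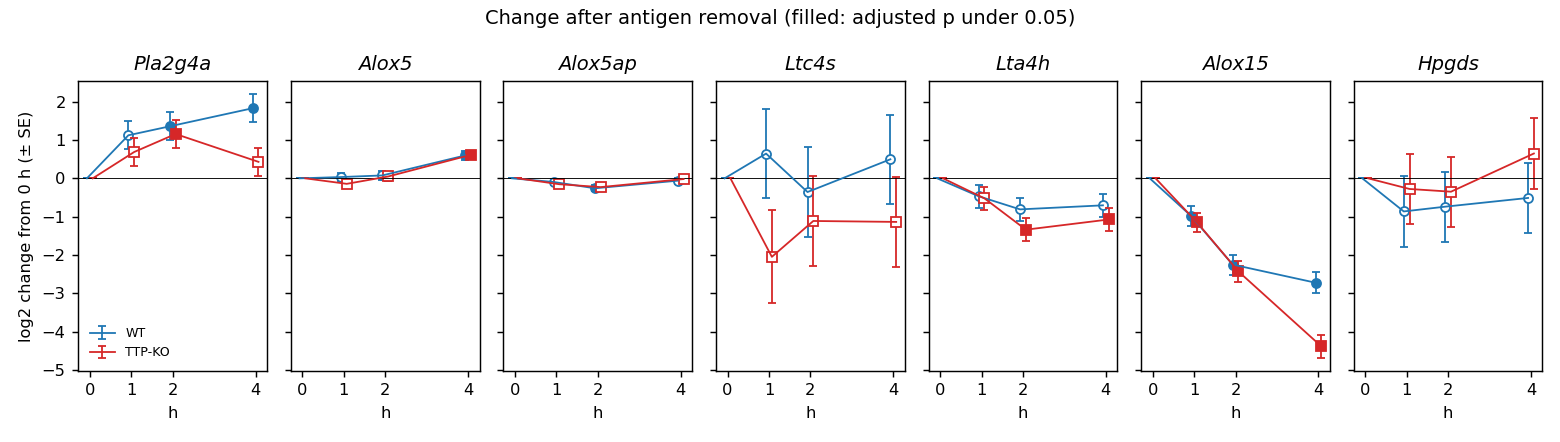
Log2 change from 0 h (y axis, ± SE) against hours after antigen removal for the 7 genes, with WT as blue circles and TTP-KO as red squares; filled symbols passed an adjusted p under 0.05. Alox15 falls to -2.72 in WT and -4.38 in TTP-KO, the Alox5 courses coincide near 0.60 at 4 h, and Pla2g4a stands at 1.83 in WT and 0.43 in TTP-KO.

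Pla2g4a RNA, which encodes the enzyme that releases arachidonic acid, rose in WT, and in TTP-KO stood higher at 2 h than at 4 h. Times were tested against 0 h only, so the step from 2 h to 4 h was not tested. In WT, libraries A, B and C stood at 17.0, 8.19 and 17.7 CPM at 0 h, 32.4, 34.0 and 27.1 at 1 h, 48.2, 30.0 and 31.7 at 2 h, and 72.2, 41.8 and 38.3 at 4 h. In TTP-KO they stood at 16.3, 13.1 and 17.8 CPM at 0 h, 17.5, 39.9 and 18.6 at 1 h, 42.3, 32.0 and 30.7 at 2 h, and 27.0, 14.6 and 21.8 at 4 h. The WT libraries from 1 h on lay above all those at 0 h. In TTP-KO the libraries at 2 h lay above those at 0 h, and those at 4 h overlapped them again.

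At 2 h against 0 h, 3 of the 7 genes were called in each genotype, where 10.0% of all genes tested were called in WT and 9.89% in TTP-KO: Pla2g4a higher in both, Alox15 lower in both, and Alox5ap lower in WT and Lta4h lower in TTP-KO. Pla2g4a rose by 1.36 ± 0.36 in WT (adjusted p = 0.008) and by 1.16 ± 0.36 in TTP-KO (adjusted p = 0.0289). At 4 h the log2 change was 1.83 ± 0.37 in WT (adjusted p = 0.000158), and 0.43 ± 0.36 in TTP-KO (adjusted p = 0.45). The 2 h calls were lost without WT 0 h B or WT 2 h A in WT (adjusted p = 0.0878 and 0.0674), and without TTP-KO 0 h A, TTP-KO 0 h B or TTP-KO 2 h A in TTP-KO (adjusted p = 0.0655, 0.12 and 0.123).

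At 4 h the Pla2g4a libraries of the genotypes did not overlap, and TTP-KO stood at 21.1 ± 6.2 CPM against 50.8 ± 18.6 in WT. The log2 difference of -1.26 ± 0.36 missed the threshold (adjusted p = 0.0536). It passed without the filter on low counts (adjusted p = 0.0265), by DESeq2 (0.0166), without WT 4 h C (0.0387) and without TTP-KO 4 h A (0.0281). The test of the difference in the change from 0 h to 4 h gave -1.40 ± 0.51 (adjusted p = 0.379).

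**Figure D4:**
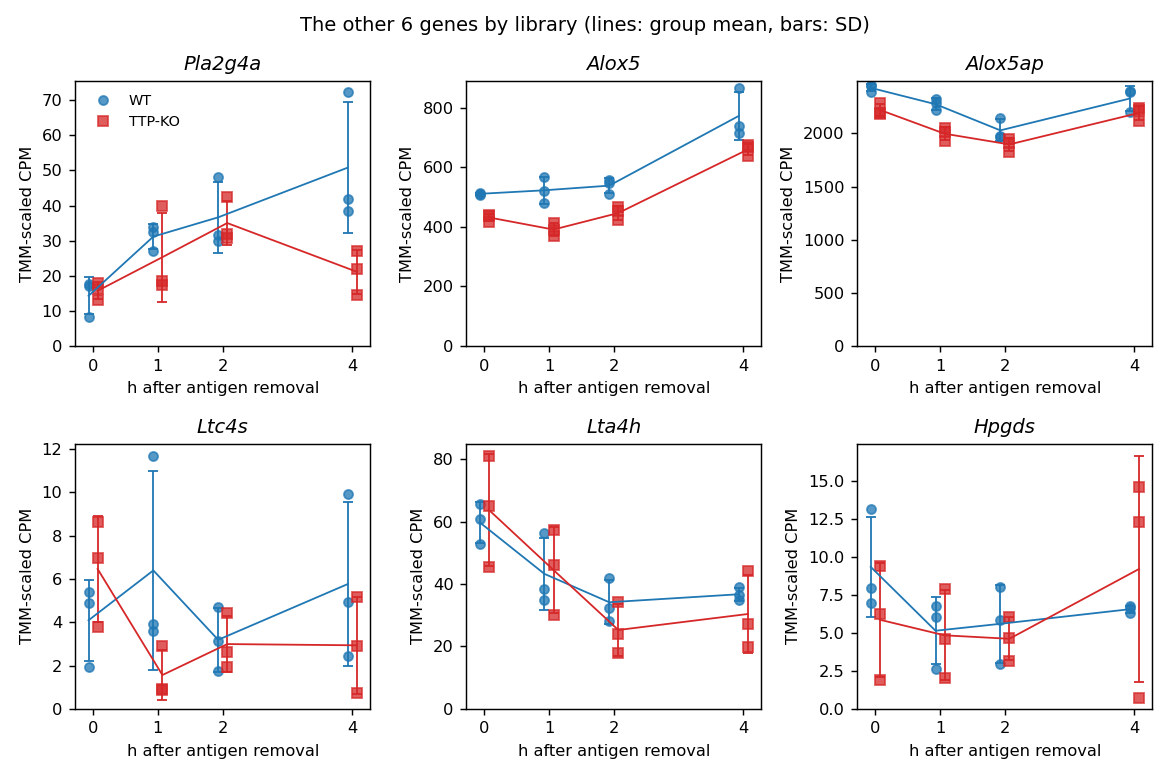
Level of the 6 genes other than Alox15 in each library, as TMM-scaled CPM on axes that start at 0, against hours after antigen removal; blue circles are WT, red squares TTP-KO, lines join group means and bars are SD of 3 libraries. WT and TTP-KO separate without overlap for Alox5 at each time and for Alox5ap at 0, 1 and 2 h. Ltc4s separates at 1 h and Pla2g4a at 4 h. The share of all genes that separate at a single time is not given here. The Ltc4s and Hpgds libraries of 1 group spread widely.

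Alox5ap, which encodes FLAP, ranged from 1826 to 2451 CPM over the 24 libraries. WT libraries ranged from 2391 to 2451 CPM at 0 h, 2214 to 2324 at 1 h, 1961 to 2146 at 2 h and 2197 to 2398 at 4 h. TTP-KO libraries ranged from 2184 to 2284 CPM at 0 h, 1929 to 2050 at 1 h, 1826 to 1949 at 2 h and 2115 to 2239 at 4 h. The genotypes did not overlap at 0, 1 and 2 h and overlapped at 4 h, with TTP-KO the lower. Averaged over the times, the difference of -0.13 ± 0.04 missed the threshold (adjusted p = 0.0842) and passed with library totals as the only scaling (0.0352) and by DESeq2 (0.00523).

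The dip of Alox5ap at 2 h in WT was -0.26 ± 0.08 (adjusted p = 0.0322). Of 11 other settings 2 kept this call, by DESeq2 and without WT 2 h C. With library totals as the only scaling it was -0.01 (adjusted p = 1), since that setting moved the median of all genes by 0.26 instead of 0.01. On that scaling Alox5ap at 4 h was called higher than at 0 h in both genotypes, by 0.26 in WT and 0.35 in TTP-KO, against -0.06 ± 0.08 and -0.02 ± 0.08 with TMM. Its direction at 4 h therefore turned with the scaling.

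Lta4h, the leukotriene A4 hydrolase gene, fell in TTP-KO, and the change in WT missed the threshold. WT libraries A, B and C stood at 52.7, 60.8 and 65.8 CPM at 0 h and at 36.4, 39.0 and 34.7 at 4 h, with the 2 h libraries at 28.1 to 41.9. TTP-KO libraries stood at 64.9, 81.1 and 45.4 CPM at 0 h and at 19.6, 27.2 and 44.3 at 4 h, with the 2 h libraries at 17.8 to 34.1. In TTP-KO the fall was called at 2 h (-1.34 ± 0.30) and at 4 h (-1.07 ± 0.30), with adjusted p = 0.00143 and 0.00742. In WT, log2 changes of -0.81 ± 0.30 and -0.70 ± 0.30 missed the threshold (adjusted p = 0.0775 and 0.105) and passed in a fit of only the groups compared (0.0433 and 0.0365).

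The 4 h call of Lta4h in TTP-KO was lost without TTP-KO 0 h B or TTP-KO 4 h A (adjusted p = 0.0686 and 0.0722) and with library totals as the only scaling (-0.70, adjusted p = 0.0908). The change from 0 h to 4 h differed between the genotypes by -0.37 ± 0.42 (adjusted p = 0.957). At no time was Lta4h called between the genotypes, whose libraries overlapped at all 4 times.

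Ltc4s and Hpgds, the genes of the committed enzymes for cysteinyl leukotrienes and prostaglandin D2, were detected in every library and passed the test in no comparison. Ltc4s had 9 to 214 reads in a library, or 0.71 to 11.7 CPM, and Hpgds 13 to 256 reads, or 0.71 to 14.6 CPM. Libraries of 1 group varied as much as the groups did, with a median coefficient of variation of 56.2% for Ltc4s and 44.2% for Hpgds, against 4.78% for Alox5 and 3.07% for Alox5ap.

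For Ltc4s, the TTP-KO libraries at 1 h (0.93, 2.89 and 0.86 CPM) lay below the WT libraries (11.7, 3.90 and 3.60 CPM), a log2 difference of -2.03 ± 1.21 (adjusted p = 0.751). At the other 3 times the genotypes overlapped. Hpgds in TTP-KO at 4 h stood at 0.71 CPM in library A and at 12.3 and 14.6 CPM in B and C, around WT libraries at 6.30 to 6.74 CPM. At single times the SE of their log2 differences was at least 0.91, so a difference of 1 was close to 1 SE.

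The median log2 difference over the 7 genes between the genotypes was -0.05 at 0 h, -0.22 at 1 h, -0.23 at 2 h and -0.27 at 4 h, beside a median over all genes tested of 0, -0.01, 0.00032 and 0. Each median of the 7 is the value of 1 gene, Alox15 at 0, 1 and 2 h and Lta4h at 4 h. The SE of these values was 0.25 to 0.30, and none was called. Medians of the change from 0 h to 4 h were -0.06 in WT and -0.02 in TTP-KO, beside 0.06 and 0.08. Across the 24 libraries the highest correlation between any pair of the 7 genes was 0.68, for Alox15 and Lta4h, and the lowest -0.59, for Alox15 and Alox5 (Pearson, log2 CPM with a prior count of 2). These libraries share genotype, time and scaling, so the values describe the series and carry no test.

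Ltb4r1, which encodes the high-affinity leukotriene B4 receptor, was the gene most like Alox5. Among 7078 other genes with a mean of at least 10 CPM its log2 level followed Alox5 with a Pearson correlation of 0.96 over the 24 libraries, and it was also the first by rank correlation (0.94). Glipr2 (0.89) and Taok3 (0.88) came next. WT libraries of Ltb4r1 stood at 70.4, 76.7 and 77.1 CPM at 0 h, 65.4, 59.7 and 67.5 at 1 h, 63.6, 81.5 and 60.0 at 2 h, and 197, 175 and 156 at 4 h. TTP-KO libraries stood at 53.0, 52.7 and 49.0 CPM at 0 h, 37.2, 34.2 and 38.7 at 1 h, 47.5, 54.4 and 38.8 at 2 h, and 100.3, 104 and 111 at 4 h. Like Alox5, Ltb4r1 was below WT in all TTP-KO libraries at each time. It was picked for its likeness to Alox5 in these same libraries, so the shared pattern follows in part from that choice.

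**Figure D5:**
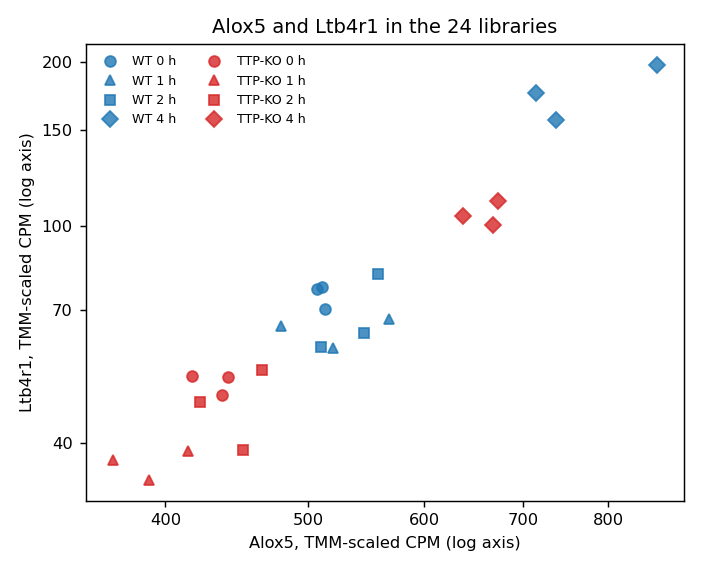
Ltb4r1 level (y axis) against Alox5 level (x axis) in the 24 libraries, as TMM-scaled CPM on log axes; blue is WT, red is TTP-KO, and the symbol gives the time. The 4 h libraries are the highest of each genotype for both genes, and TTP-KO libraries lie below WT libraries of the same time on both axes.

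The Ltb4r1 difference averaged over the times was -0.66 ± 0.09 (adjusted p = 1.53e-06), and it was called in all 29 other settings. At single times it was called at 1 h (-0.81 ± 0.19, adjusted p = 0.0207) and in the 4 h groups (-0.75 ± 0.19, adjusted p = 0.0199). Each of these calls held in 1 of 6 leave-one-out fits, without WT 1 h B and without WT 4 h C, and was lost without any other library of its groups. From 0 h to 4 h it rose by 1.24 ± 0.19 in WT and by 1.03 ± 0.19 in TTP-KO (adjusted p = 1.17e-06 and 3.27e-05). Its annotated 3' UTR of 200 bases holds no TATTTAT.

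The genes most like the other 6, by the same measure, were these. Alox15 was followed by Itm2b (0.96), Esyt2 (0.96) and Rsu1 (0.96), and Alox5ap by Tap2 (0.88), Gyg1 (0.83) and Arhgef1 (0.83). For Lta4h they were Tmcc3 (0.83), Pdk3 (0.82) and the ribosomal pseudogene Rpl9-ps6 (0.80), and for Pla2g4a Ikzf1 (0.81), Psme3 (0.80) and Prrc2a (0.79). Ltc4s reached only 0.65 with Dnajb12, 0.65 with B4galnt1 and 0.64 with Ddx19a, and Hpgds 0.72 with Plrg1, 0.66 with Crcp and 0.64 with Kctd5.

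The genes around the 7 were followed through 5 lists of 79 genes, of which 62 were tested. Of 4 tested other lipoxygenases, 1 rose and 1 fell at 4 h in WT, and 1 fell in TTP-KO, beside 16.7% and 18.1% of all genes tested called in either direction; none was called between the genotypes. Alox12, the platelet-type 12-lipoxygenase gene, fell from 119 ± 10 to 41.4 ± 5.3 CPM in WT (-1.52 ± 0.27, adjusted p = 2.97e-05) and from 119 ± 9.9 to 33.3 ± 14.9 in TTP-KO (-1.85 ± 0.28, adjusted p = 8.54e-07). Alox8 rose from 14.2 ± 4.1 to 32.7 ± 11.1 CPM in WT (1.21 ± 0.40, adjusted p = 0.0299), a call that was lost without WT 0 h A, WT 0 h C, WT 4 h A or WT 4 h C.

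Of 19 tested genes of arachidonic acid release and re-acylation, 1 rose and 2 fell at 4 h in each genotype, beside the same 16.7% and 18.1%. The 2 that fell were Anxa1, whose product annexin A1 inhibits phospholipase A2 (-1.54 ± 0.13 in WT and -1.74 ± 0.14 in TTP-KO), and Acsl4, which couples arachidonic acid to coenzyme A (-1.01 ± 0.13 and -1.13 ± 0.13). Their adjusted p values lay between 1.18e-14 and 1.4e-08. Averaged over the times, 2 genes of the list were higher in TTP-KO, beside 3.43% of all genes tested called in either direction. Pla2g7, a platelet-activating factor hydrolase that macrophages also make, was higher by 1.90 ± 0.29 (adjusted p = 8.97e-06), beside the macrophage marker sums given above, whose part in it was not tested. Abhd12 was higher by 0.67 ± 0.20 (adjusted p = 0.0441), a call kept in 9 of 24 leave-one-out fits.

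Of 8 tested genes of prostanoid synthesis, the 1 called was Ptgs2, between the genotypes and at 4 h against 0 h. It stood at 1920 ± 176 CPM in WT and 4517 ± 136 in TTP-KO at 0 h (1.23 ± 0.13, adjusted p = 7.15e-09), and was higher in TTP-KO also after 1 h (1.87 ± 0.14) and 2 h (1.30 ± 0.13, adjusted p = 1.41e-14 and 1.35e-09). At 4 h it had fallen to 170 ± 29 CPM in WT and 226 ± 42 in TTP-KO, with a difference of 0.41 that missed the threshold (adjusted p = 0.125). The change from 0 h to 4 h differed between the genotypes by -0.83 ± 0.19 (adjusted p = 0.0398), where 0.193% of all genes tested were called, and the call was kept in 5 of 12 fits that left out 1 library. It was lost without WT 0 h B, WT 4 h A or C, any TTP-KO library at 0 h, or TTP-KO 4 h B. Whether the 6 TATTTAT cores of Ptgs2 play a part in its genotype difference was not tested.

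Among 19 tested genes of leukotriene regulation, export, maturation and inactivation, 1 rose and 6 fell at 4 h in WT, and 1 rose and 7 fell in TTP-KO, beside 16.7% and 18.1% of all genes tested. Abcc1, the exporter of leukotriene C4, rose from 49.6 ± 11.7 to 113 ± 28 CPM in WT (1.19 ± 0.21, adjusted p = 2.11e-05) and from 70.5 ± 9.2 to 115 ± 6.1 in TTP-KO (0.70 ± 0.21, adjusted p = 0.0116). The TTP-KO call was lost without TTP-KO 0 h B, without TTP-KO 0 h C, and without both of the smallest libraries. Mapkapk2, whose kinase can phosphorylate 5-lipoxygenase, fell by 0.90 and 1.15, Gpx1 by 0.74 and 1.03, and Cotl1, which encodes a 5-lipoxygenase partner, by 0.71 and 0.84 on the log2 scale in WT and TTP-KO. Ptgr3 fell in TTP-KO by 1.18 (adjusted p = 0.0231), a call lost without TTP-KO 0 h B or TTP-KO 4 h C.

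Between the genotypes, Cyp4f18, which encodes a hydroxylase that inactivates leukotriene B4, was lower in TTP-KO at 4 h, at 228 ± 69 against 453 ± 76 CPM (-0.99 ± 0.14, adjusted p = 3.59e-06). This was called in each leave-one-out fit and lost without both of the smallest TTP-KO libraries. Its change from 0 h to 4 h differed by -0.84 ± 0.19 (adjusted p = 0.0398), a call kept in 5 of 12 fits that left out 1 library and lost without WT 0 h A or B, TTP-KO 0 h B, WT 4 h B or C, or TTP-KO 4 h B or C. Averaged over the times it was lower by 0.47 and Cotl1 by 0.24, while Mgst1 was higher by 1.46 ± 0.34 (adjusted p = 0.00625), at 13.1 ± 1.8 against 7.51 ± 0.90 CPM at 0 h.

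Mgst2, a microsomal glutathione transferase gene that can also make leukotriene C4, stood at 11.2 ± 1.8 CPM in WT at 0 h and at 0 reads in each WT library at 4 h. Against a floor of 3 reads over that group, its WT level at 0 h was at least 201-fold higher (adjusted p = 0.000259). In TTP-KO at 4 h it ranged from 0 to 3.64 CPM with 0 reads in 1 library, at least 39.5-fold above the same floor on average (adjusted p = 0.0214). Mgst2 means were 9.70, 2.99, 0.87 and 2.21 CPM in TTP-KO at 0, 1, 2 and 4 h, and 6.38 and 2.81 CPM in WT at 1 h and 2 h. TTP-KO libraries at 2 h ranged from 0 to 39 reads. These floors do not cover such spread between libraries, so the fold values are not firm. The genotype call was lost without WT 4 h A, B or C and without both of the smallest TTP-KO libraries, when the remaining library had 0 reads. Whether 0 reads reflect no RNA or the counting of 3' tags was not tested.

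Of 12 tested eicosanoid receptors, 2 rose and 1 fell at 4 h in each genotype, beside 16.7% and 18.1% of all genes tested. Besides Ltb4r1, the prostaglandin E2 receptor gene Ptger3 rose (0.97 ± 0.27 in WT, adjusted p = 0.00662, lost without WT 4 h A; 1.33 ± 0.27 in TTP-KO, adjusted p = 0.000155). Ptger4, which encodes another receptor for it, fell from 162 ± 25 to 39.4 ± 11.0 CPM in WT and from 173 ± 17 to 40.5 ± 2.6 in TTP-KO (-2.04 ± 0.19 and -2.09 ± 0.19, adjusted p = 6.48e-12 and 2.65e-12). Among the receptors, Ltb4r1 was the 1 called between the genotypes. The lists were chosen with earlier results of these data known, so their counts are descriptions.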

How the data were processed

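The authors deposited 1 table of the series that holds expected counts for each gene in each library (not normalized, 12.8% of values not whole, per the file headers and the values). Tools named in the submitters' processing notes are STAR 2.7.10a, cutadapt 3.5 and SAMtools, with the build GRCm39; annotation and strand setting of the counting: not given in the sources used here. Alox5ap and Ltc4s overlap antisense genes in GENCODE M21, whose reads cannot be told apart without strand. Reads of Alox5 and Alox5ap were not whole in 14 and 13 libraries, so some were shared with other features. The table's letters A to C are not tied to the labels' replicate numbers, so each column counts as a library of its group. The other 144 columns of per-sample values (the new-to-total RNA ratio and its parameters) were not used here, so no labelled fractions or half-lives are given.

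Reads were rounded, filtered (filterByExpr), TMM-scaled and tested in R 4.3.3 with edgeR 4.0.16, in 1 quasi-likelihood fit of 8 group means over 24 libraries, with Benjamini-Hochberg adjustment over 12936 genes. The method was tested on simulated data. Within a group, no library repeated another (chi-square per degree of freedom at least 29.5 over 24 pairs). Alternatives were library totals as the only scaling, no filter, DESeq2 1.42.0, only the groups compared, leaving out each library, leaving out both of the smallest TTP-KO libraries at 4 h, and, chosen after seeing the data, the letters as a block. The genes, lists and rules were chosen with earlier results of these data known. Named list genes were those called between genotypes, or called at 4 h against 0 h with a log2 change of at least 1 in either genotype; for likeness, the 3 genes of highest correlation. Floors of 3 reads cover counting error only, and tags carry no molecular identifiers. Motifs were read from GENCODE M21 and RefSeq windows of GRCm38.p6, not the submitters' build.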

Additional observations from a re-analysis of the deposited data

Results flagged for a closer look

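The fall of Alox15 RNA from 0 h to 4 h differed between the genotypes by a log2 value of -1.66 ± 0.37, with TTP-KO falling further, in edgeR's test of the difference itself (adjusted p = 0.0398, 3 libraries in each of the 4 groups). Each of the 3 TTP-KO libraries at 4 h, at 3.29 to 7.86 CPM, lay below each WT library, at 15.0 to 26.0 CPM, while at 0 h the genotypes overlapped. The range of adjusted p over the 12 fits that left out 1 library was 0.00249 to 0.133.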

How the results depend on the processing

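Nothing ties the table's letters to the labels' replicate numbers, so a replicate block by letter was chosen after seeing the data. With it 75, 76, 72 and 240 genes were called between the genotypes at 0, 1, 2 and 4 h (68, 65, 67 and 236 without), and in no comparison did the count move by over 1.5 times; of the 7 genes, in WT at 2 h, Alox5ap was no longer called (adjusted p = 0.0537) and Lta4h was (adjusted p = 0.0499), and the calls of Alox8 at 4 h in WT and Abhd12 averaged over the times were lost (adjusted p = 0.0502 and 0.0644). Deviations from the group means of 84 same-letter pairs correlated at -0.124 to 0.11, and 10 of 24 libraries correlated best with one of their own letter. All genes called, TTP-KO against WT: without the low-count filter 123, 108 and 127 at 0, 1 and 2 h and 89 for the difference in the 0 to 4 h change; by DESeq2 222, 199, 234 and 490 at 0, 1, 2 and 4 h, 728 averaged and 184 for that difference, and 601 and 658 for 1 h against 0 h in WT and TTP-KO; with only the groups compared 116, 41 and 47 at 0, 2 and 4 h and 16 for the difference; without both of the smallest TTP-KO libraries 130 at 4 h and 58 for the difference. Leaving out 1 library gave 137 (without TTP-KO 4 h C) to 431 (without TTP-KO 4 h A) at 4 h, and 8 (without WT 0 h B) to 114 (without TTP-KO 4 h A) for the difference. Of the 7 genes, 1 was called at 1 h with library totals as the only scaling and by DESeq2; at 4 h 2 without the filter and by DESeq2, 0 with only the groups compared, and 1 to 2 on leaving out 1 library; for 1 h against 0 h in WT 2 by DESeq2 and 0 to 1 on leaving out 1 library; for 2 h against 0 h in WT 1 to 3; for the difference 0 with only the groups compared and 0 without both of the smallest libraries, and 0 to 1 on leaving out 1 library. The log2 difference of Mgst2 at 4 h was 0 without both of the smallest libraries, where the remaining TTP-KO library had 0 reads. The other causes were not tested. Library totals as the only scaling turned the split of higher and lower calls: at 4 h against 0 h from 875 and 1290 to 1831 and 748 in WT and from 964 and 1372 to 2156 and 818 in TTP-KO, at 2 h from 463 and 837 to 1033 and 414 and from 533 and 746 to 1002 and 447, at 1 h from 136 and 166 to 199 and 118 and from 159 and 195 to 188 and 156; between the genotypes from 52 and 13 to 48 and 23 at 1 h, 53 and 14 to 48 and 31 at 2 h, 122 and 114 to 132 and 86 at 4 h, and 11 and 14 to 22 and 11 for the difference. It moved the median of all genes to 0.38 and 0.45 at 4 h (0.06 and 0.08 with TMM). Among changes of named genes that edgeR or DESeq2 called with all libraries, 479 alternative values kept direction and call, 56 lost the call, 9 gained it and 1 reversed. Omissions of 1 library count here for the 7 genes where edgeR called the change, and for the other genes in genotype comparisons at single times. Ltc4s and Hpgds, at 9 to 256 reads, are limited by depth and by spread between libraries.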
